A study of Mus musculus with 4 samples.

Results

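The cells described here are Mmp12-positive macrophages of the mouse common bile duct with mosaic gain of function of Ctnnb1, which encodes beta-catenin. A cell counted as one if it had at least 500 detected genes, at most 25% mitochondrial UMIs (unique molecular identifiers, each marking a captured RNA molecule), at most 3 UMIs of the epithelial gene Epcam, 5 or more of the lysozyme gene Lyz2, 1 or more of Mmp12, and a UMI of at least 1 of Csf1r, Adgre1 and Cd68. The gate found 521 such cells among 10101 cells of the gain-of-function library that passed the gene and mitochondrial limits, and among 22968 barcodes in the series. They were set against 1197 macrophages of the same library that met the same gene, mitochondrial, Epcam and Lyz2 limits, had a Csf1r UMI and had 0 UMI of Mmp12. The same gate found 3, 7 and 2 cells in wild-type libraries 1, 2 and 3.

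The study captured dissociated duct cells with the 10x Chromium 3′ chemistry to compare gain-of-function with normal ducts. The series has 1 gain-of-function library, labelled with the genotype Prom1_BcatGOF and below called GOF, and 3 libraries labelled wild type. All were labelled common bile duct, all cell types, with no treatment. The labels give no strain, age, sex, number of pooled animals or description of the construct, and do not say which cells carry the altered Ctnnb1. The labels do not tie each wild-type library to its own animal, so p-values across libraries reflect a spread between samples that may be only technical. Cells of the GOF library are not replicates, so differences between its Mmp12-positive and Mmp12-negative macrophages are given as sizes with intervals for counting error only and without p-values.

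Mmp12 encodes macrophage metalloelastase, a secreted zinc protease best known for cleaving elastin. In other mouse tissues it marks macrophages recruited during injury and remodelling, including cells that take up lipid and debris. Macrophages of a tissue commonly range between resident cells, which express complement C1q and scavenger receptors, and cells newly derived from blood monocytes.

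Mmp12 lies on chromosome 9 (GRCm38, 7344381 to 7369499, plus strand). The RefSeq table for GRCm38.p6 holds 2 start regions for it, shown because Mmp12 defines these cells. The 250 bases before and at each start are chr9:7344147-7344396 and chr9:7347124-7347373, both on the plus strand. Capitals mark matches to 2 of the motifs searched on both strands, GAGGAAGT (an ETS-type motif, whose reverse complement is ACTTCCTC) in the upstream region and TGANTCA (an AP-1 motif) in the downstream region.
Mmp12 upstream start: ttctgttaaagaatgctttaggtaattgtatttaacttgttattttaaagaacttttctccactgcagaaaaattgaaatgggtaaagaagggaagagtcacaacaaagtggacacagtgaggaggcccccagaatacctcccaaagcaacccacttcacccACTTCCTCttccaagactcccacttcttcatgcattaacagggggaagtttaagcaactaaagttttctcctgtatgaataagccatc
Mmp12 downstream start: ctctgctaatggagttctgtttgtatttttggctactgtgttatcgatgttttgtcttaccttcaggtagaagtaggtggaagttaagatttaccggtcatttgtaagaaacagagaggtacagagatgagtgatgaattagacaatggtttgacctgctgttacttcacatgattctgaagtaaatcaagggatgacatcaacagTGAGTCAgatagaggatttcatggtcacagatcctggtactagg
The ETS match lies 88 bases before the upstream start and the AP-1 match 44 bases before the downstream start. Windows of the same length hold these motifs in 2.79% and 7.82% of 27025 genes, and the E-box CACGTG in 6.86%. Of 23 named genes that were higher with Mmp12, 18 had an entry, of which 3 held the AP-1 motif (Mmp12, Met, Prdx1), 2 the ETS motif (Mmp12, Vsig8) and 1 the E-box (Met). These are matches of letters within the window only. Gpc1, Lpl, Dcstamp, Clmp and Cadm1 had no entry.

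The gate required macrophage genes, so their presence is no check of the label. Of the 521 cells, 487 had a UMI of Csf1r (the receptor for macrophage colony-stimulating factor), 480 of Cd68 (a lysosomal glycoprotein) and 208 of Adgre1 (F4/80), and 181 had all 3. Lyz2 had a median of 183 UMIs per cell in Mmp12-positive and 141 in Mmp12-negative macrophages. Of the macrophage genes that the gate did not use, Fcer1g, a signalling chain of Fc receptors, was at 2876 CPM (counts per 1e+06 UMIs summed over the cells) in Mmp12-positive and 3284 CPM in Mmp12-negative macrophages, and Aif1 at 122 and 165 CPM. Across 14 macrophage core genes, those of the gate included, 0 were past 2-fold higher and 1, the Fc receptor gene Fcgr1, was past 2-fold lower.

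Markers of other cell types were present at low summed levels and moved in both directions. In Mmp12-positive against Mmp12-negative macrophages, 12 dendritic cell genes summed to 349 against 206 CPM, of which Itgax, also expressed by macrophages, was 303 against 172 CPM. Of these genes Xcr1 was at 0 in the Mmp12-negative set. The 12 T and NK cell genes summed to 76.6 against 17.5 CPM, of which Il7r was 65.8 against 13.97 CPM. Gzma and Ncr1 of that list were at 0 in the Mmp12-positive set, and Cd8a, Gzma and Trac in the Mmp12-negative set. Lists that were lower in the Mmp12-positive set were duct epithelium (10 genes, 266 against 329 CPM), fibroblast (8 genes, 422 against 502 CPM), neutrophil (10 genes, 276 against 943 CPM), B cell (7 genes, 17.2 against 63.5 CPM) and endothelium (8 genes, 11.9 against 48.8 CPM). The part of RNA from other cells in the results below was not tested.

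Few cells lay right at the Epcam and Lyz2 limits, while 111 of the 521 cells entered on 1 Mmp12 UMI. The count of genes past 2-fold lower changed with the Epcam and Lyz2 limits, as given in the last section. Epcam was 0 in 420 of the cells and 3 UMIs in 4, while 2 cells just outside had 4 Epcam UMIs. Lyz2 was 5 to 9 UMIs in 18 cells, while 16 cells with 2 to 4 Lyz2 UMIs otherwise met the gate. A further 61 cells met all but the Epcam limit, and 51 of those were among the 932 GOF barcodes with the highest Scrublet doublet scores. Of the 521 cells, 27 were among those 932 barcodes and were kept unless stated.

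The GOF library holds 113596685 UMIs and the wild-type libraries 43737469, 17358894 and 9558637. GOF cells had a median mitochondrial share of 2.95%, against 10.7, 12.2 and 14.4% for cells of the wild-type libraries. The GOF matrix came from Cell Ranger 7.0.0 and the wild-type matrices from 3.0.2, so genotype and read counting cannot be told apart. The GOF library shares 19, 6 and 5 cell barcodes with wild-type libraries 1, 2 and 3. Of its 10101 cells, 3971 had a UMI of Xist, the RNA of the inactive X chromosome, and 4308 had a UMI of a Y-linked gene (Ddx3y, Eif2s3y, Uty or Kdm5d), with 632 holding both. In the wild-type libraries 28, 26 and 9 cells had an Xist UMI. The GOF library therefore holds cells of both kinds, and its results are also given within each kind below.

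Mmp12 itself was concentrated in the gated cells. They held 7265 of its 8258 UMIs in the GOF library, which is 88.0%. The number of UMIs per cell was uneven, with a median of 5, quartiles of 2 and 14 and a maximum of 206. Of the gated cells 111 had 1 UMI, 136 had 2 to 4, 166 had 5 to 19 and 108 had 20 or more. In wild-type library 1 the 3 gated cells had 1, 1 and 5 Mmp12 UMIs. In wild-type library 2 the 7 gated cells had 1, 1, 2, 2, 6, 10 and 16, and in wild-type library 3 the 2 gated cells had 8 and 28. Single wild-type macrophages therefore reached the upper classes of the GOF cells.

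Among all macrophages of the gate, taken without the Mmp12 condition, 28.9% of GOF cells had an Mmp12 UMI (95% exact interval 26.8 to 31.0; 521 of 1804), against 2.40% (3 of 125), 4.61% (7 of 152) and 1.80% (2 of 111) of wild-type cells. Median depth was 8084.5 UMIs for GOF macrophages and 4457, 4491 and 2686 in wild-type macrophages. After each cell was thinned to 2000 UMIs, the share was 20.1% of GOF macrophages (18.3 to 22.1; 350 of 1738), against 0.885%, 3.85% and 2.74% of wild-type macrophages (1 of 113, 5 of 130 and 2 of 73). The wild-type mean was 2.49% ± 1.496 (SD, n = 3), and the GOF value lay 17.6 percentage points above it. The GOF value lay above every wild-type value, and the exact permutation test over the 4 libraries gave its smallest possible two-sided p of 0.25. Mmp12 helped to choose these cells and the comparison, so the share is a description.

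Mmp12 UMIs also occurred at a low rate in GOF cells of other types. They were found in 3.10% of cells with 4 or more Epcam UMIs (155 of 5007; median depth 9362), in 2.48% of cells with 5 or more Col1a1 UMIs and under 5 of Lyz2 (15 of 604; median depth 14027) and in 2.46% of cells with a Cd3e UMI and under 5 of Lyz2 (3 of 122; median depth 2852.5). After thinning, the shares were 0.898%, 0.679% and 2.91%. Wild-type cells with 4 or more Epcam UMIs had an Mmp12 UMI in 2 of 3099, 0 of 1311 and 0 of 842 cells. The share in GOF macrophages was above this background at matched depth, and wild-type libraries 2 and 3 had 5 and 2 thinned macrophages with Mmp12.

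**Figure D1:**
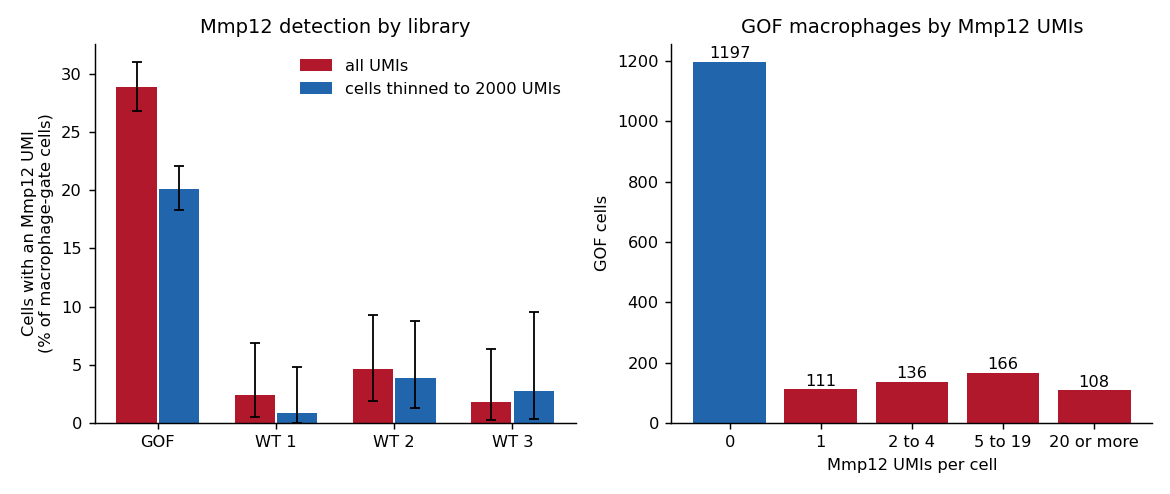
Left, percent of macrophage-gate cells with an Mmp12 UMI by library, with all UMIs and after thinning to 2000 UMIs, with 95% exact binomial intervals for counting error. Right, number of GOF macrophages by Mmp12 UMIs per cell. The GOF bars (28.9% and 20.1%) stand above all wild-type bars.

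Macrophages as a whole took a larger share of the GOF library. They were 17.9% of its cells (17.1 to 18.6; 1804 of 10101), against 2.74%, 6.13% and 5.28% of wild-type cells, a difference of 13.1 percentage points from the wild-type mean of 4.72% ± 1.76 (SD, n = 3). The exact permutation test again gave the smallest possible p, 0.25. Mmp12-positive macrophages were 5.16% of all GOF cells.

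Within the GOF library, Mmp12-positive macrophages differed from Mmp12-negative ones in a limited set of genes. They had more lysozyme 1, Ccl9 and Cd36, and more of several matrix proteases and of some lipid-associated macrophage genes such as Lpl and Gpnmb. They also had more RNA of Dcstamp, Prdx1, Alas1 and the growth factor gene Inhba. They had less of many C1q resident genes, of Ccl8, Ccl7 and Ccl2, and of some monocyte and most counted neutrophil genes. Among 10594 genes with at least 50 UMIs in both sets together, 128 (1.21%) were past 2-fold higher and 393 (3.71%) past 2-fold lower, and the median log2 ratio was -0.09. The counts of listed genes in the paragraphs below stand beside these shares. The Mmp12-positive cells were deeper, with median totals of 9617 against 7670 UMIs per cell, so ratios were also computed with each cell thinned to 2000 UMIs (505 and 1165 cells). Mmp12 chose the sets and the comparison required Csf1r, so the values for both are set by the gate.

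The 3 other marker genes of these cells were higher in them. Ccl9, a macrophage chemokine that acts through the receptor Ccr1, reached 1423 CPM in Mmp12-positive and 764 CPM in Mmp12-negative macrophages, a ratio of 1.86 (95% counting interval 1.80 to 1.92; 1.81 after thinning). Cd36, a scavenger receptor for oxidised lipoproteins and fatty acids, reached 1366 against 674 CPM, a ratio of 2.03 (1.96 to 2.09). Its median per cell was 10 against 3 UMIs, so the difference was spread over many cells. Lyz1, the lysozyme better known from Paneth cells of the mouse gut, reached 1106 against 512 CPM, a ratio of 2.16 (2.08 to 2.24; 1.89 after thinning). Lyz1 was patchy: its median was 0 UMIs in both sets, its upper quartile 9 against 1 UMI, and its maximum 234 against 206 UMIs. The last 300 bases of the Lyz1 and Lyz2 transcripts are 96.9% identical with a shared run of 104 bases, so reads may have been split between them and the Lyz1 count is uncertain. Csf1r, at 500.3 against 592 CPM, was not higher.

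**Figure D2:**
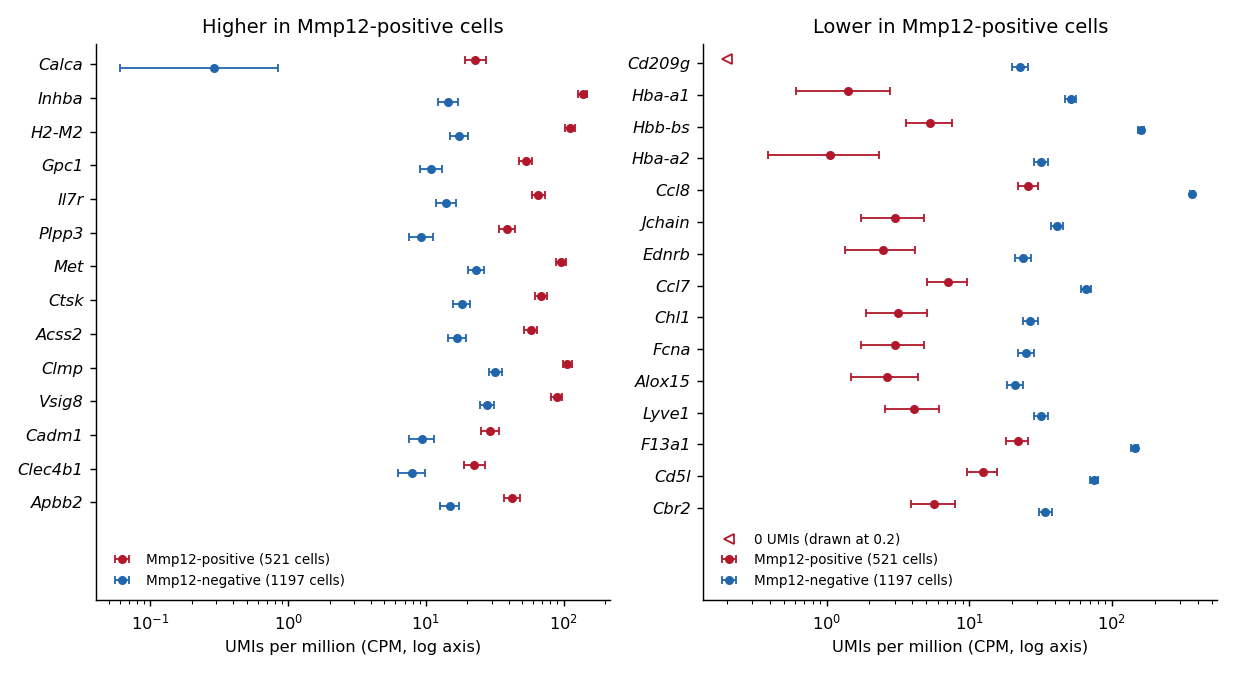
CPM of the named genes in Mmp12-positive and Mmp12-negative GOF macrophages, on log axes, with 95% counting intervals; genes higher in Mmp12-positive cells are on the left and lower ones on the right. Inhba stands at 138 against 14.5 CPM and Ccl8 at 25.9 against 365 CPM.

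Among matrix proteases and their inhibitors, 6 of 14 genes counted were past 2-fold higher, Mmp12 included, and 0 lower, beside 1.21% and 3.71% of all genes. Mmp19, a matrix metalloproteinase, reached 79.4 CPM in Mmp12-positive against 29.6 CPM in Mmp12-negative macrophages (ratio 2.69, 2.32 to 3.12). Plau, the urokinase plasminogen activator, reached 10.5 against 2.60 CPM on 59 and 27 UMIs. The other 3 were Mmp9, Adam8 and Timp1. Timp1, which inhibits metalloproteinases, reached 211 against 82.3 CPM, but 1 Mmp12-positive cell held 31.3% of its UMIs. The fibroblast collagen gene Col1a1 moved with Timp1, at 75.2 against 40.4 CPM, and its part in the Timp1 value was not tested. Timp2, another inhibitor, was at 355 against 426 CPM.

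Genes of lipid-associated macrophages, the cells that collect around lipid and dying cells, were higher at the median, with a log2 ratio of 0.77. Of 20 counted, 6 were past 2-fold higher and 0 lower, beside 1.21% and 3.71% of all genes. Lpl, the lipoprotein lipase that frees fatty acids from triglycerides, reached 1641 CPM in Mmp12-positive against 712 CPM in Mmp12-negative macrophages (ratio 2.30, 2.23 to 2.38). Spp1, the secreted matrix protein osteopontin, reached 5116 against 2525 CPM (ratio 2.03). Gpnmb, a transmembrane glycoprotein of lysosome-rich macrophages, reached 247 against 93.4 CPM (ratio 2.65, 3.51 after thinning), with 1 Mmp12-negative cell holding 200 UMIs. Ctsk, the collagen-cleaving cathepsin K of osteoclasts, reached 68.6 against 18.2 CPM (ratio 3.77), and Atp6v0d2, a subunit of the vacuolar proton pump, 63.3 against 23.6 CPM (ratio 2.68). The sixth was Cd36. A broader list of lipid uptake and efflux genes did not move in 1 direction: 2 of 20 were past 2-fold higher (Cd36 and Lpl) and 2 lower (Apoe and Apoc2), with a median log2 ratio of 0.09. That list summed to 11384 CPM in Mmp12-positive against 13620 CPM in Mmp12-negative macrophages, Apoe being its most abundant gene. Acss2, which makes acetyl-CoA from acetate, reached 57.8 against 17.0 CPM. General lysosomal genes did not follow to that size, with a median log2 ratio of 0.07, beside -0.09 over all genes. Of these, 0 of 20 were past 2-fold either way, among them Ctsd at 2579 against 2190 CPM and Lipa at 353 against 227 CPM.

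The genes whose level per cell ranked most like Mmp12 over the 1804 GOF macrophages were Lgals3, Prdx1, Gpc1, Lpl, Dcstamp, Cd63, Alas1, Cd36, Fth1 and Met. Their Spearman rank correlations with Mmp12 lay between 0.433 for Lgals3 and 0.347 for Met, among 7031 genes ranked. All points come from 1 library and share its depth differences, so these are descriptions of sparse counts. Lgals3, the galectin of activated macrophages, reached 2798 CPM in Mmp12-positive and 1412 CPM in Mmp12-negative macrophages (ratio 1.98). Dcstamp, which is needed for fusion of osteoclasts and foreign-body giant cells, reached 487 against 193 CPM (ratio 2.52, 2.38 to 2.67). Its median was 3 against 0 UMIs per cell. Cd63, a tetraspanin of late endosomes, reached 1269 against 733 CPM.

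Prdx1, Alas1 and Fth1 serve redox, haem and iron handling. Prdx1, a peroxidase that removes hydrogen peroxide, reached 5078 CPM in Mmp12-positive against 1958 CPM in Mmp12-negative macrophages (ratio 2.59, 2.55 to 2.64). Alas1, the rate-limiting enzyme of haem synthesis, reached 724 against 298 CPM (ratio 2.43). Fth1, the heavy chain of ferritin, reached 47649 against 31567 CPM (ratio 1.51). Of 14 oxidative stress genes counted, Prdx1 was the 1 past 2-fold higher and 0 were lower, with a median log2 ratio of 0.63. Just inside 2-fold were Gclc, which makes glutathione precursor (ratio 1.90), the haem oxygenase gene Hmox1 (1.87) and the cystine transporter gene Slc7a11 (1.85).

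Among growth factors and receptors, Inhba, which encodes the subunit of activin A, had the largest ratio that many cells carried. It reached 138 CPM in Mmp12-positive against 14.5 CPM in Mmp12-negative macrophages, a ratio of 9.46 (7.93 to 11.3; 6.92 after thinning). Met, the receptor for hepatocyte growth factor, reached 95.9 against 23.1 CPM (ratio 4.15), and Gpc1, a heparan sulfate proteoglycan of the cell surface, 53.0 against 10.98 CPM (ratio 4.83). Il7r, a cytokine receptor chain of lymphocytes and some myeloid cells, reached 65.8 against 13.97 CPM (ratio 4.71). Il7r is also the gene that carried the T and NK cell list, which summed to 76.6 against 17.5 CPM. Of 17 growth factor genes counted, Inhba was the 1 past 2-fold higher, and 4 were past 2-fold lower, among them Thbs1 (thrombospondin 1, 63.3 against 149 CPM), Gas6 (23.6 against 61.5 CPM) and Bmp2 (5.14 against 11.7 CPM).

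The remaining genes with large ratios were mostly of the cell surface. H2-M2, a non-classical class I gene of the major histocompatibility complex, reached 112 CPM in Mmp12-positive against 17.4 CPM in Mmp12-negative macrophages (ratio 6.39). The adhesion-type immunoglobulin genes Clmp, Vsig8 and Cadm1 had ratios of 3.34, 3.22 and 3.15. Plpp3, a phosphatase of bioactive lipids, had a ratio of 4.20, Apbb2 of 2.84 and the lectin gene Clec4b1 of 2.85. Calca, the calcitonin and CGRP gene, had 129 against 3 UMIs, a ratio of 79.1 (26.5 to 389), but 1 cell held 69.0% of its UMIs. Classical class II and class I presentation did not differ by that much: 0 of 16 antigen presentation genes were past 2-fold, with Cd74 at 2459 against 2528 CPM. Their median log2 ratio was -0.19, beside -0.09 over all genes.

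The C1q resident genes were lower as a group, with a median log2 ratio of -1.21. Of 18 counted, 11 were past 2-fold lower and 0 higher, beside 3.71% and 1.21% of all genes. The scavenger and mannose receptor gene Mrc1 was at 20.7 CPM in Mmp12-positive against 118 CPM in Mmp12-negative macrophages (ratio 0.175), and Cd163, the haemoglobin scavenger receptor, at 1.06 against 13.4 CPM. Lyve1, a hyaluronan receptor, was at 4.08 against 31.9 CPM, F13a1, coagulation factor XIII, at 21.8 against 144 CPM, and Apoe at 3920 against 8025 CPM (ratio 0.489). Cbr2, a carbonyl reductase, was at 5.67 against 34.1 CPM, and the lectin gene Fcna, outside this list, at 3.01 against 25.1 CPM. The C1q subunit genes were lower by less: C1qa was at 670.5 against 1293 CPM and C1qb at 957 against 1708 CPM. A C1qa UMI was found in 64.3% of Mmp12-positive and 60.7% of Mmp12-negative cells, or 38.2% and 46.9% after thinning. Its median was 2 UMIs per cell in both sets and its upper quartile 7 against 13. Summed C1q RNA was therefore lower and still present in the Mmp12-positive cells.

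Chemokine genes split by member. Of 10 CC chemokine genes, 3 were past 2-fold lower and 0 higher. Ccl8 was at 25.9 CPM in Mmp12-positive against 365 CPM in Mmp12-negative macrophages (ratio 0.0709, 0.0597 to 0.0837), Ccl7 at 7.09 against 65.8 CPM and Ccl2 at 31.9 against 87.3 CPM, all 3 being monocyte attractants. Ccl6, a neighbour of Ccl9 on chromosome 11, was at 2136 against 1566 CPM. Of 8 CXC genes, the neutrophil attractant Cxcl3 was past 2-fold higher at 250.5 against 94.3 CPM, and Cxcl10 and the B-cell attractant Cxcl13 were lower. Cxcl2 was close to even at 1957 against 1829 CPM. Of 12 inflammatory cytokine genes, Il1rn, the antagonist of the interleukin-1 receptor, was higher at 328 against 151 CPM, while Il1b was at 364 against 641 CPM and the anti-inflammatory Il10 was past 2-fold lower.

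Some genes of newly arrived myeloid cells were lower. Of 14 classical monocyte genes 5 were past 2-fold lower and 0 higher, with Ly6c2 at 0.709 CPM in Mmp12-positive against 10.8 CPM in Mmp12-negative macrophages, Plac8 at 23.6 against 113 CPM and the chemokine receptor gene Ccr2 at 48.9 against 103 CPM. The other 9 were not past 2-fold, and the list's sum was nearly even at 12261 against 12443 CPM, with Fn1 at 7527 against 7240 CPM and S100a4 at 1563 against 1569 CPM. Of 5 neutrophil genes counted 4 were past 2-fold lower, with S100a9 at 108 against 481 CPM. The transcription factor genes Maf and Id3 were the 2 of 23 past 2-fold lower, and 0 were higher, beside 3.71% and 1.21% of all genes. None of 20 immediate early genes, 19 mitosis and replication genes, 17 glycolysis and hypoxia genes or 7 Wnt ligand and receptor genes was past 2-fold in either direction. Since few of all genes were (1.21% higher, 3.71% lower), a 0 in lists of this size says little. Their median log2 ratios were -0.36, 0.27, -0.03 and -0.18 in that order, beside -0.09 over all genes. Of 3 Wnt feedback genes with enough UMIs, Nkd1 was past 2-fold lower, on 11 UMIs in Mmp12-positive and 42 in Mmp12-negative macrophages.

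Some of the lowest ratios rested on 1 cell of the Mmp12-negative set. A single cell held 92.3% of the UMIs of the haemoglobin gene Hba-a1, 94.5% of Hbb-bs, 88.8% of Hba-a2 and 85.3% of the immunoglobulin joining chain gene Jchain. Cd209g, a lectin gene, had 0 UMIs in Mmp12-positive against 235 in Mmp12-negative macrophages, a ratio of at most 0.0235 with a floor of 3 counts, and 1 cell held 26.0% of them. Spread over more cells were Alox15, a lipoxygenase of resident macrophages (2.66 against 21.003 CPM), Ednrb, an endothelin receptor (2.48 against 23.9 CPM), and Cd5l, a secreted protein of tissue macrophages (12.4 against 74.96 CPM). Chl1 was at 3.19 against 26.9 CPM, with 1 Mmp12-negative cell holding 41.2%.

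Levels were then followed over classes of Mmp12 UMIs per cell: 0 (1197 cells), 1 (111), 2 to 4 (136), 5 to 19 (166) and 20 or more (108). The genes were named from these same cells, many for their relation to Mmp12, so a trend over the classes is partly set by that choice. Median depth moved with the class, at 7670, 8168, 8852, 9433 and 12693 UMIs per cell, and its part in the order was not tested. Prdx1 was at 1958, 3023, 4245, 4165 and 8182 CPM, and Lgals3 at 1412, 1795, 2345, 2704 and 3937 CPM. Lpl was at 712, 1147, 1432, 1690 and 2076 CPM. Both Lgals3 and Lpl were higher in each class than in the one before. Inhba was at 14.5, 43.9, 55.7, 133 and 270.5 CPM, and Alas1 at 298, 398, 543, 679 and 1139 CPM. Ccl9 levelled off sooner, at 764, 1041, 1452, 1454 and 1616 CPM, and Lyz1 did not follow the upper classes, at 512, 914, 1210, 1142 and 1109 CPM.

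**Figure D3:**
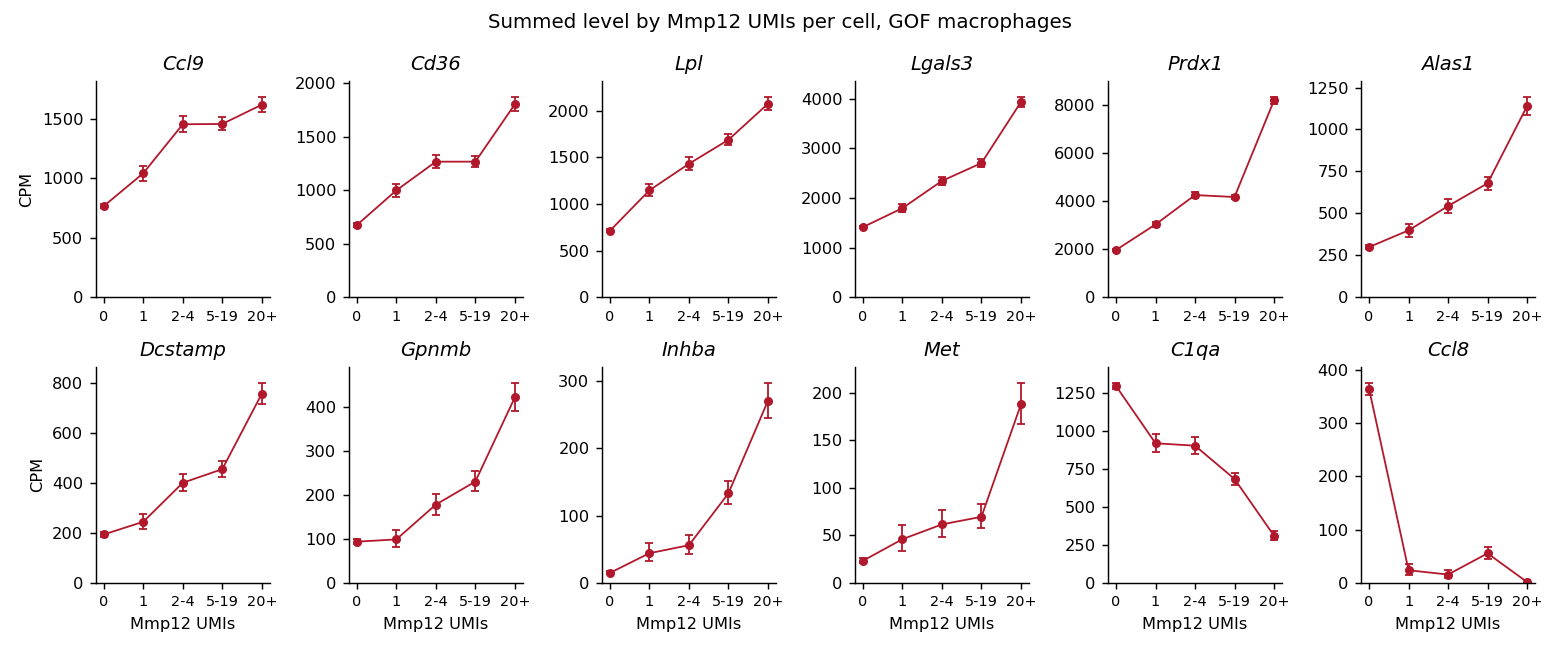
CPM of 12 genes in GOF macrophages grouped by Mmp12 UMIs per cell, from 0 to 20 or more, with 95% counting intervals. Lpl and Lgals3 are higher with each class, while C1qa is at 309 CPM in cells with 20 or more Mmp12 UMIs.

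Lower genes, likewise named from these same cells, followed the classes too. C1qa was at 1293, 917, 901, 682 and 309 CPM from 0 to 20 or more Mmp12 UMIs, and C1qb at 1708, 1233, 1139, 1023 and 550.1 CPM. Apoe was at 8025, 5957, 4184, 4278 and 1938 CPM. S100a9 was at 481, 236, 142, 98.4 and 7.102 CPM, and the scavenger receptor gene Marco at 821, 838, 599, 410 and 271 CPM. Ccl8 was at 365, 23.4, 15.4, 55.2 and 1.29 CPM, so most of its difference lay between 0 and 1 Mmp12 UMI. Timp1 went against the Mmp12 order, at 82.3, 537, 310.3, 82.6 and 67.8 CPM, and Col1a1 peaked in the same classes, at 40.4, 199.95, 149, 4.92 and 16.8 CPM.

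The Mmp12-negative set was itself mixed, which bears on what it is a comparison with. Of its 1197 cells 471 had 0 UMIs of C1qa, 243 had 1 to 4 and 483 had 5 or more, a split made after the values were seen. Over these classes Ccl8 was at 1.97, 4.50 and 820.4 CPM and Lyve1 at 1.68, 8.10 and 66.8 CPM. Dcstamp was at 256, 233 and 125 CPM and Lpl at 901, 928 and 461 CPM, below the 487 and 1641 CPM of the Mmp12-positive cells in every class. Gpnmb was at 13.2, 35.6 and 184 CPM, below the 247 CPM of the Mmp12-positive cells.

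The GOF library's cells with Y-linked and with Xist RNA gave a second view of the same comparison, added after the data were seen. Cells with a Y-linked UMI and no Xist UMI held 1056 macrophages, of which 347 had Mmp12 (32.9%, 30.0 to 35.8). Cells with an Xist UMI and no Y-linked UMI held 215 macrophages, of which 38 had Mmp12 (17.7%, 12.8 to 23.4). The Mmp12-negative sets held 676 and 159 cells. Of the 14 named higher genes, the 14 had ratios above 1 in both kinds of cell, and of the 15 named lower genes, 15 had ratios below 1 in Y-linked and 11 in Xist cells. These genes were chosen for their ratios over all these cells, and 347 of the 521 Mmp12-positive cells were Y-linked. The counts therefore describe the split and are no replication. Whether the kinds of cell came from different animals is not given in the labels, and no test was made.

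Marker and lipid genes fell into 2 groups in this view. Ccl9 had a ratio of 1.85 in Y-linked and 1.65 in Xist cells, Cd36 of 1.97 and 2.21, Lyz1 of 2.27 and 2.27, Lgals3 of 1.97 and 2.04, and Met of 4.10 and 4.16. Lpl had ratios of 2.08 and 5.38, Prdx1 of 2.39 and 5.92, Dcstamp of 2.26 and 10.3, and Alas1 of 2.19 and 8.32, so these were above 1 in both kinds. Inhba had a ratio of 7.83 in Y-linked cells, while in Xist cells it rested on 1 Mmp12-negative UMI (ratio 145, 24.5 to 5896). Gpnmb differed, with a ratio of 6.27 in Y-linked and 0.998 in Xist cells, as did Spp1 (2.27 and 0.524), Atp6v0d2 (7.54 and 0.897) and Mmp19 (4.03 and 0.815). A single Mmp12-negative cell of the library held 200 Gpnmb UMIs, beside 243 in the Y-linked and 566 in the Xist Mmp12-negative set. Which set held that cell was not examined. C1qa had ratios of 0.623 and 0.543 and Apoe of 0.593 and 0.593. Epithelial keratins moved with the Xist values: Krt18 had a ratio of 0.832 in Y-linked and 2.22 in Xist cells (1.72 to 2.86), Krt19 of 0.692 and 1.90, Krt7 of 0.729 and 2.82, and Krt8 of 0.656 and 1.56. The part of epithelial RNA in the ratios of the Xist cells was not tested. The 2-fold differences of Gpnmb, Spp1, Atp6v0d2 and Mmp19 over the whole library were therefore not present among Xist cells, of which 38 had Mmp12. For Gpnmb that reading may depend on the 1 cell with 200 UMIs.

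**Figure D4:**
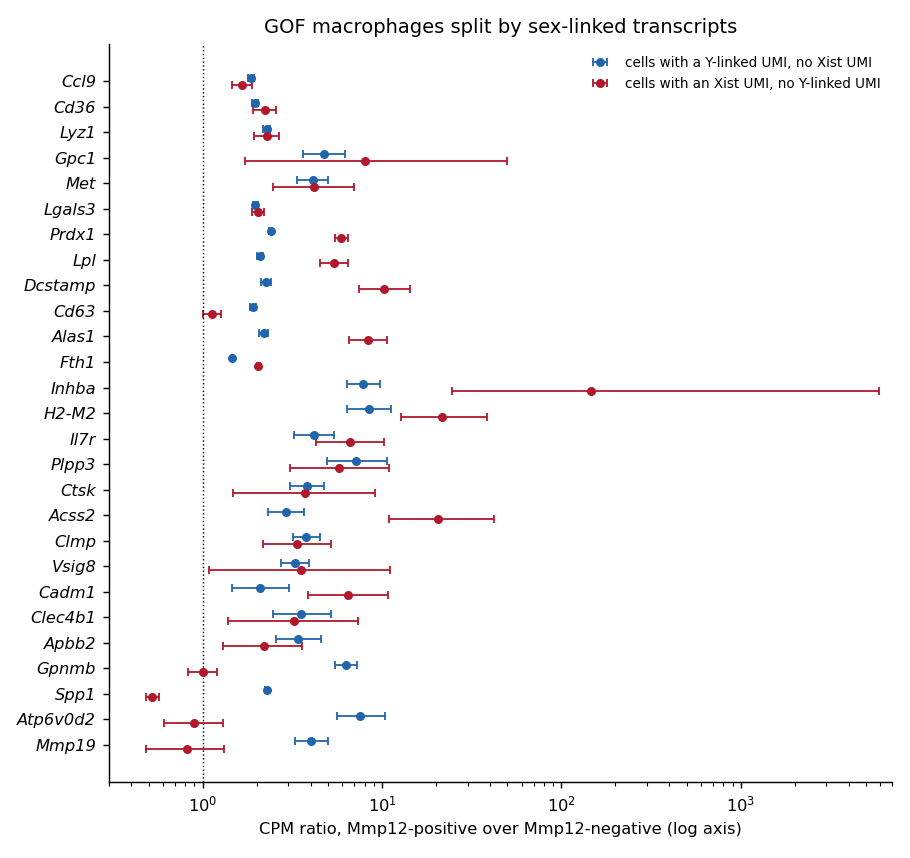
Ratio of CPM in Mmp12-positive to Mmp12-negative GOF macrophages, on a log axis with 95% counting intervals, among cells with a Y-linked UMI and no Xist UMI and among cells with an Xist UMI and no Y-linked UMI. Gpnmb, Spp1, Atp6v0d2 and Mmp19 lie above 1 among the Y-linked cells; among the Xist cells Spp1 lies below 1 and the intervals of the other genes of these 4 include 1.

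The wild-type libraries held too few Mmp12-positive macrophages for the same comparison, so GOF and wild-type macrophages were compared as a whole, with the gate lacking its Mmp12 condition. UMIs were summed over 1804 GOF and 125, 152 and 111 wild-type cells and tested with edgeR, the lone GOF library being assumed to vary like the wild-type ones. Of 8376 genes tested, 725 (8.66%) were higher and 224 (2.67%) lower in GOF macrophages at an adjusted p below 0.05. Genes with at most 5 kb of intron, on which counting of intronic reads has less room to act, gave 63 of 1691 higher (3.73%) and 92 lower (5.44%) in the same fit. Whether intronic reads were counted is not given in the sources used here, and the genotype and the Cell Ranger version cannot be told apart in any value below. The 8 largest higher calls had 0 wild-type UMIs. They were March3 (1393 GOF UMIs), Xist (1362), Vsig8 (800), Nr4a3 (654), Fpr3 (554), Aarsd1 (479), Slc6a12 (466) and Cpne1 (445). Among the 8 largest lower calls were Ptp4a1 (3 GOF UMIs against 32, 57 and 25), Ifi202b (3 against 52, 30 and 19) and the acinar gene Prss2. The part of sex, strain or gene reference in these calls was not tested.

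Of the other markers of the Mmp12-positive cells, Lyz1 and Ccl9 were also called higher across GOF macrophages, while Cd36 and Csf1r were not. Lyz1 was at 697 TMM-scaled CPM in GOF macrophages against 118, 28.2 and 43.9 in wild-type libraries 1, 2 and 3, which is 3.44 ± 0.57 higher on the log2 scale (estimate ± SE; edgeR adjusted p = 0.00238). Ccl9 was at 975 against 385, 234 and 323 CPM (1.64 ± 0.41; edgeR adjusted p = 0.0231). The Ccl9 call was lost when only Mmp12-negative macrophages were compared, at a log2 fold change of 1.28 and an edgeR adjusted p of 0.0681, and when wild-type library 2 was left out (adjusted p = 0.0568). Cd36 was at 893 against 78.9, 205 and 417 CPM and did not pass (1.96 ± 0.61; edgeR adjusted p = 0.0598). It passed when any 1 wild-type library was left out. Csf1r was at 537 against 668, 426 and 708 CPM, within the wild-type range. Mmp12, which chose the cells, was at 435 against 11.1, 44.7 and 113 CPM.

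Genes that tracked Mmp12 within the GOF library differed in how they stood against wild type. Dcstamp was at 288 CPM in GOF against 3.16, 2.35 and 0 CPM in wild-type macrophages (log2 fold change 7.02 ± 0.55; edgeR adjusted p = 4.06e-05). It still passed without Mmp12-positive cells (7.27; edgeR adjusted p = 0.000156). The fits without Mmp12-positive cells, here and below, left out those of the wild-type libraries too. Alas1 was at 437 against 23.7, 27.1 and 34.5 CPM (3.97 ± 0.40; edgeR adjusted p = 0.000144). Lpl was at 1009 against 142, 233 and 226 CPM (2.34 ± 0.41; edgeR adjusted p = 0.0033). Alas1 and Lpl also passed without Mmp12-positive cells (edgeR adjusted p = 0.000365 and 0.00895). Dcstamp, Alas1 and Lpl were therefore above wild type also in Mmp12-negative GOF macrophages, and higher still in the Mmp12-positive ones. By contrast Lgals3, at 1868 against 862, 1802 and 1642 CPM, did not pass (edgeR adjusted p = 0.658), nor did Prdx1 (0.545), Cd63 (0.673), Fth1 (0.42) or Ctsk (0.434).

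**Figure D5:**
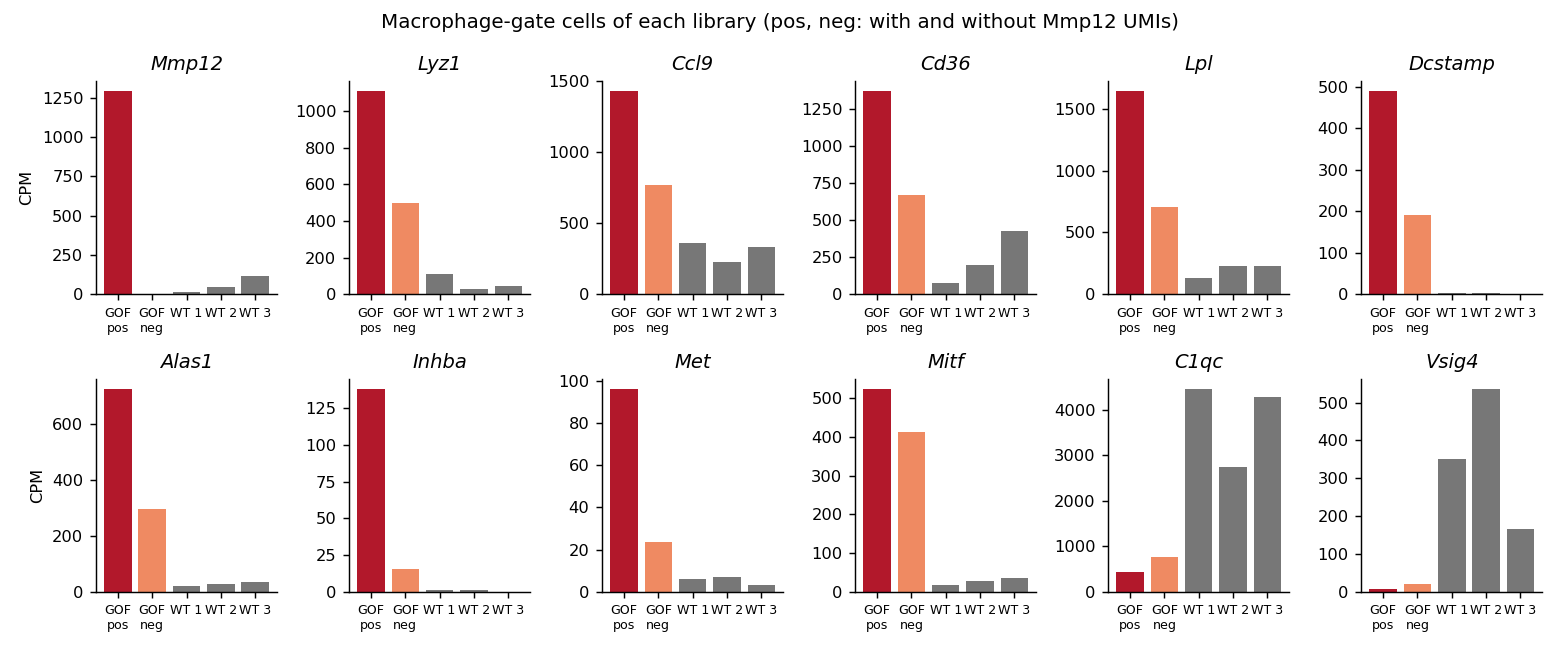
CPM of 12 genes in GOF macrophages with Mmp12 (GOF pos) and without it (GOF neg) and in the macrophages of each wild-type library (WT 1 to WT 3), without TMM scaling. Lpl, Dcstamp and Alas1 are higher in both GOF sets than in any wild-type library.

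For a second group, calls against wild type were lost without the Mmp12-positive cells; whether the effects with and without them differ was not tested. Inhba had 1, 1 and 0 UMIs in wild-type macrophages, a ratio of 53.6 for GOF over wild type (14.8 to 443), and its call was lost without Mmp12-positive cells (fitted log2 difference 3.66; edgeR adjusted p = 0.0875). Met was at 47.6 CPM in GOF against 6.32, 7.06 and 3.13 CPM in wild-type macrophages (2.99 ± 0.51; edgeR adjusted p = 0.00305), and its call was lost likewise (log2 difference 1.88; adjusted p = 0.102). H2-M2 had wild-type counts of 3, 0 and 0 UMIs (ratio 30.8, 10.5 to 150) and lost its call (fitted log2 difference 3.20; edgeR adjusted p = 0.132). The call for Acss2 was lost too (log2 difference 1.57; edgeR adjusted p = 0.306, against 0.0319 with all cells). The fitted differences of these 4 genes thus stayed above 0 in GOF macrophages without Mmp12. Gpc1 had wild-type counts of 0, 2 and 1 UMIs (ratio 15.8, 5.36 to 76.8) and fell under the low-count filter without the Mmp12-positive cells. Vsig8 had none, and was at least 30.3-fold higher in GOF macrophages with a floor of 3 counts over the wild-type group. Its call held without the Mmp12-positive cells (edgeR adjusted p = 0.00863).

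The C1q resident genes were lower in GOF macrophages as a whole as well. Of 18 tested, 8 fell and 0 rose, beside 2.67% and 8.66% of all genes tested. Their median log2 difference was -2.00, beside -0.06 over all genes. Vsig4, a complement receptor of resident macrophages, was at 16.3 CPM in GOF against 374, 554 and 163 CPM in wild-type macrophages (-4.49 ± 0.75; edgeR adjusted p = 0.00248). C1qc was at 641 against 4757, 2845 and 4212 CPM (-2.62 ± 0.54; edgeR adjusted p = 0.00852). Cbr2, Folr2, Lyve1, Selenop, Stab1 and Timd4 also fell. Among genes low in the Mmp12-positive cells, Fcna was at 17.1 against 799, 82.4 and 188 CPM and Ednrb at 16.6 against 295, 147 and 56.4 CPM. Ccl8, at 238 against 641, 444 and 360 CPM, did not pass (edgeR adjusted p = 0.203), although the Mmp12-positive cells had 25.9 CPM.

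Inflammatory cytokine and CXC chemokine genes were higher at the median in GOF macrophages, with log2 differences of 2.44 and 1.76, beside -0.06 over all genes. Immediate early genes were also higher at the median (1.07). Interferon response genes (-0.49) and CC chemokine genes (-1.02) were lower at the median. The counts that follow stand beside 8.66% of all genes tested that rose and 2.67% that fell. Of 10 inflammatory cytokine genes tested 7 rose in GOF macrophages and 0 fell, and of 8 CXC chemokine genes 4 rose. Il1b was at 546 CPM in GOF against 75.8, 58.9 and 31.3 CPM in wild-type macrophages (3.26 ± 0.44; edgeR adjusted p = 0.000742), although within the GOF library it was lower in Mmp12-positive cells. Cxcl2 was at 1864 against 36.3, 197 and 138 CPM (3.91 ± 0.60; edgeR adjusted p = 0.00155), while it was close to even within the library. Cxcl3, with 1 wild-type UMI, had a ratio of 275 (49.3 to 10871). Of 14 oxidative stress genes 5 rose, with Slc7a11 at 499 against 20.5, 17.7 and 12.5 CPM, and of 23 transcription factor genes 6 rose and 1 fell. The largest fold change among these was that of Mitf, a regulator of lysosomal and osteoclast genes, at 443 against 17.4, 29.4 and 34.5 CPM (4.06 ± 0.43; edgeR adjusted p = 0.000189). Slc7a11, Mitf and Met have 537, 208 and 103 kb of intron.

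Of 20 lipid-associated genes 2 rose (Lpl and Hvcn1) and 1 fell (Syngr1), beside 8.66% and 2.67% of all genes tested. Of 13 proteases and inhibitors Mmp19 and Timp1 rose, as did Mmp12, which chose the cells described here. The calls for Hvcn1, Mmp19 and Timp1 were lost without the Mmp12-positive cells, at log2 differences of 1.64, 1.73 and 2.11. Antigen presentation (16 genes), lysosome (20), mitosis and replication (19), glycolysis and hypoxia (17) and macrophage core genes (14) had 0 edgeR calls. Their median log2 differences were -0.98, -0.66, -1.86, 0.34 and -0.38 in that order. The acinar genes of the pancreas were lower in the GOF cells, all 8 tested falling: their sum was 13.3 CPM in GOF against 232, 1399 and 961 CPM in wild-type macrophages. The collagen genes Col1a1, Col1a2 and Col3a1 rose, with Col1a1 at 59.6 against 0, 3.53 and 0 CPM. The part of RNA from acinar cells and fibroblasts in the other calls was not tested.

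The GOF macrophages hold the Mmp12-positive cells, so both comparisons share cells and are set side by side only. Of the 128 genes past 2-fold higher in Mmp12-positive cells 65 were tested against wild type, and 29 of those rose (44.6%, beside 8.66% of all genes tested) and 0 fell (2.67% of all genes). Of the 393 genes past 2-fold lower 213 were tested, and 24 rose (11.3%, near the 8.66% of all genes) and 34 fell (16.0%, beside 2.67% of all genes).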

How the data were processed

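Droplet libraries of dissociated common bile duct were analysed, 1 GOF and 3 wild type. The deposited values are raw UMI counts of genes in barcodes that the authors had already called as cells. The GOF matrix came, per the file headers, from Cell Ranger 7.0.0 (32285 genes) and the wild-type matrices from 3.0.2 (31053 genes), while the submitters' processing notes name Cell Ranger 7.1 and mm10. No source used here gives the gene reference release or the treatment of intronic reads. Across libraries, the 30406 shared gene identifiers were used.

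The members, the gene lists and the tests were chosen with earlier results of these data known. UMIs were summed over Mmp12-positive and Mmp12-negative GOF macrophages, with exact Poisson and conditional binomial 95% intervals for counting error only. A gene was counted with 50 or more UMIs in both sets together and a ratio past 2-fold, and a 0 was set to a floor of 3 counts. Thinning drew 2000 UMIs per cell without replacement, leaving out shallower cells (16 and 32). Shares have exact Clopper-Pearson intervals. Named genes were the 5 markers; the 15 largest ratios each way with 20 or more CPM in the higher set, past 2-fold also after thinning and with an interval excluding 1 (14 in the text for higher, beside Mmp12 itself); up to 6 members of each list; the 10 genes ranked most like Mmp12 among genes with a UMI in 10% or more of the cells; and, against wild type, the 8 largest calls each way and up to 3 per list. Genes named with levels outside this rule in the text on Mmp12 classes were chosen after their values were seen.

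Macrophage sums of GOF and wild-type libraries entered edgeR 4.0.16 (quasi-likelihood, TMM, filterByExpr, Benjamini-Hochberg at 0.05) in R 4.3.3, with 2 residual degrees of freedom. The wild-type sums differed from each other beyond sampling noise (chi-square per degree of freedom 6.89 to 14.8) and were kept as 3 samples. Shares were tested with exact permutation over the 4 libraries. Doublets were scored by Scrublet (scanpy 1.11.5), whose default threshold marked 313 GOF and 106, 45 and 18 wild-type cells. Doublet counts in the text, and the alternative without doublets, took the 932, 313, 86 and 56 highest-scoring cells. That number was set at 0.8% per 1000 barcodes. The code was run on simulated counts with planted changes and less spread than these data, which checks the code only. Alternatives changed the gate, thinning, fold, filter, scaling, tool (DESeq2 1.42.0) and libraries used. The planned comparison within wild-type libraries was not run, since each held fewer than 10 Mmp12-positive macrophages.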

Additional observations from a re-analysis of the deposited data

Results flagged for a closer look

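A signal outside the comparisons was present in the GOF library: 3971 of its 10101 cells had an Xist UMI, against 28 of 4562, 26 of 2480 and 9 of 2103 cells of wild-type libraries 1, 2 and 3. Among macrophages of the gate, 305 of 1804 GOF cells had an Xist UMI, against 0 of 125, 0 of 152 and 0 of 111 wild-type cells. Of the Mmp12-positive cells, 59 of 521 had one. The labels give neither sex nor number of animals.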

How the results depend on the processing

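No paired analysis was possible because the GOF group has 1 library and shares fewer than 2 replicate numbers with wild type. Within the GOF library, genes past 2-fold higher (128) and lower (393) in Mmp12-positive cells numbered 65 and 176 after thinning, 227 and 707 with a minimum of 20 UMIs, 62 and 135 with 200 UMIs, and 386 and 1007 at 1.5-fold. The lower count was also 255 with Epcam at 0, 942 with 2 or more Lyz2 UMIs and 218 in Y-linked cells. Of the results for single genes, 496 stayed within counting error, 99 moved and 3 reversed: Calca to a log2 ratio of -0.067 with Epcam at 0, and Hbb-bs to 0.79 and Jchain to 0.43 in Xist cells. Against wild type, 725 higher and 224 lower edgeR calls became 1201 and 385 without the filter (median log2 of all genes 0.54), 735 and 148 with 2 or more Lyz2 UMIs, 377 and 237 with DESeq2, and 33 and 11 when only 1698 genes with at most 5 kb of intron were fitted. Leaving out 1 wild-type library gave 799 to 1036 higher and 329 to 433 lower; the lower count was 403 without library 1 and 433 without library 3. Without Mmp12-positive cells 713 and 197 were called, 856 of 944 calls remaining, and Prdx1 turned to -0.0213. Of the settings for single genes, 1011 kept their side of the threshold, 64 gained a call, 49 lost it and 1 reversed. The share of macrophages with Mmp12 stayed 12.8 to 25.9 percentage points above the wild-type mean under every setting tried. The causes of these changes were not tested. With 111 to 152 wild-type macrophages per library, low genes had few or no wild-type UMIs, so the depth of these libraries limits their values, and the GOF spread is unmeasured.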
